A study of Mus musculus with 12 samples.

Results

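Lysosomal cathepsins, the vacuolar proton pump (V-ATPase) that acidifies the lysosome, the accessory proteins of the pump and the 2 LAMP glycoproteins of the lysosomal membrane were followed in mouse astrocytes, in the spheres that grew from them and in freshly isolated cells of 2 neurogenic regions. The genes were taken by name and not by their values: all protein-coding genes named Cts plus a letter, Atp6v0 or Atp6v1 plus a subunit letter and number, Atp6ap1, Atp6ap2, Lamp1 or Lamp2. This gave 44 of the 55862 genes measured, of which 21926 are protein-coding. They comprise 18 cathepsins (14 cysteine, 2 aspartic and 2 serine proteases), 9 subunits of the membrane sector V0, 13 subunits of the cytosolic sector V1, 2 accessory proteins and 2 LAMPs.

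RNA was sequenced from 12 samples of mouse cells, 3 in each of 4 groups. ASTs were primary astrocytes from the cortex of C57BL/6 pups in the first days after the day of birth. They were grown as a monolayer in serum and collected at day 0 of the sphere culture. A-iSCs were the same kind of astrocytes after 5 days as floating spheres on agarose, with no transgene or added factor. P56-NPCs and P0-NPCs were suspensions of cells dissociated from adult subependymal zone (postnatal day 56) and newborn hippocampus (postnatal day 0). Both came from C57BL/6J mice, called wild-type for P0 alone, so the named substrain differs between the cultured and the NPC groups. No sort of either suspension is described, so each can hold other cells of the region. The labels do not say whether the 3 samples of a group came from separate cultures or animals. The paper names 3 independent experiments in general, without tying them to the sequenced samples. The p-values thus measure the spread between these samples, which may be technical.

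Lysosomes are acidic compartments in which cells break down material taken up by endocytosis, phagocytosis or autophagy. Cathepsins are their main proteases. Most need a low pH for activation and activity, and several also act outside the lysosome. The V-ATPase splits ATP in its V1 sector and passes protons through its V0 sector; some of its subunits exist as isoforms made by separate genes with their own tissue patterns. In the brain, microglia, the resident macrophages, have a large lysosomal system, and cathepsin S in particular is known as a protease of microglia and other antigen-presenting cells.

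Levels are given in FPKM, fragments scaled by gene length and library size, and each sample held 17077780 to 24452419 fragments in genes. Differences are given as log2 fold changes on the log2(FPKM + 1) scale, which understates the change of genes near or under 1 FPKM, and a gene was called where limma gave an adjusted p (Benjamini-Hochberg, over all genes tested) under 0.05. Markers of the labelled cell types were checked first. All 8 astrocyte markers exceeded a mean of 1 FPKM in every group, but their summed level was 143 to 161 FPKM in ASTs, 1211 to 2466 in A-iSCs, 2834 to 3072 in P56-NPCs and 238 to 303 in P0-NPCs. The summed level of 12 microglia markers was 249 to 303 FPKM in ASTs, 2459 to 3435 in A-iSCs, 852 to 905 in P56-NPCs and 146 to 177 in P0-NPCs. The 6 oligodendrocyte markers summed to 10820.0 FPKM or more in P56-NPCs and to at most 75.9 elsewhere, and the 9 neuron markers summed to 787 to 956 FPKM in P0-NPCs, mostly Tubb3, although 6 of the 9 had their highest mean in P56-NPCs. The 8 neural precursor markers summed to 330.2 to 355 FPKM in ASTs, 319 to 368 in A-iSCs, 183 to 201 in P56-NPCs and 257 to 268 in P0-NPCs, with Nes and Sox2 making up most of the sum in ASTs. Nes was highest in ASTs (196 FPKM against 26.9 in P0-NPCs), whereas 4 of the 8 (Dcx, Eomes, Pax6 and Prom1) were highest in P0-NPCs, and 6 of the 8 were called higher in P0-NPCs than in ASTs and 2 lower. Mitochondrial genes took 16.5% to 17.6% of the fragments of P56-NPCs and 2.94% to 7.03% of those of the other samples. In such bulk samples, fewer cells of a type and less RNA per cell cannot be told apart.

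Of the 44 genes, 33 reached a mean of 1 FPKM in at least 1 group, and 29 reached 10 FPKM. A-iSCs had the highest mean of the 4 groups for 15 of the 33 genes, ASTs for 12, P56-NPCs for 4 and P0-NPCs for 2. By role, the A-iSC mean was highest for 9 of 12 cathepsins, and the AST mean was highest for 10 of 17 pump subunits. P0-NPCs had the lowest mean for 23 of the 33 genes. These orders of means were not counted over all genes, so they describe the 33 genes alone.

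In the comparison of A-iSCs with ASTs, 14 of the 33 tested genes rose (25.2% of all genes tested did) and 8 fell (29.6% of all genes). Here, rose and fell mean a higher or lower level in A-iSCs. Culture form and culture time differed together between these groups. A different mix of cells and a change within astrocytes cannot be told apart either. The rises were mostly of cathepsins. Of 12 cathepsins tested, 10 rose and 0 fell, while of 17 V0 and V1 subunits 3 rose and 6 fell, and of the 4 accessory and LAMP genes 1 rose and 2 fell. The median log2 fold change was 1.62 for the cathepsins and -0.31 for the subunits, beside -0.06 for all genes tested. With library-size or upper-quartile scaling, 11 cathepsins rose and 0 fell, and 3 subunits rose and 1 fell, while the shares of all genes were 31.9% or 31.4% higher and 20.9% or 21.1% lower.

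**Figure D1:**
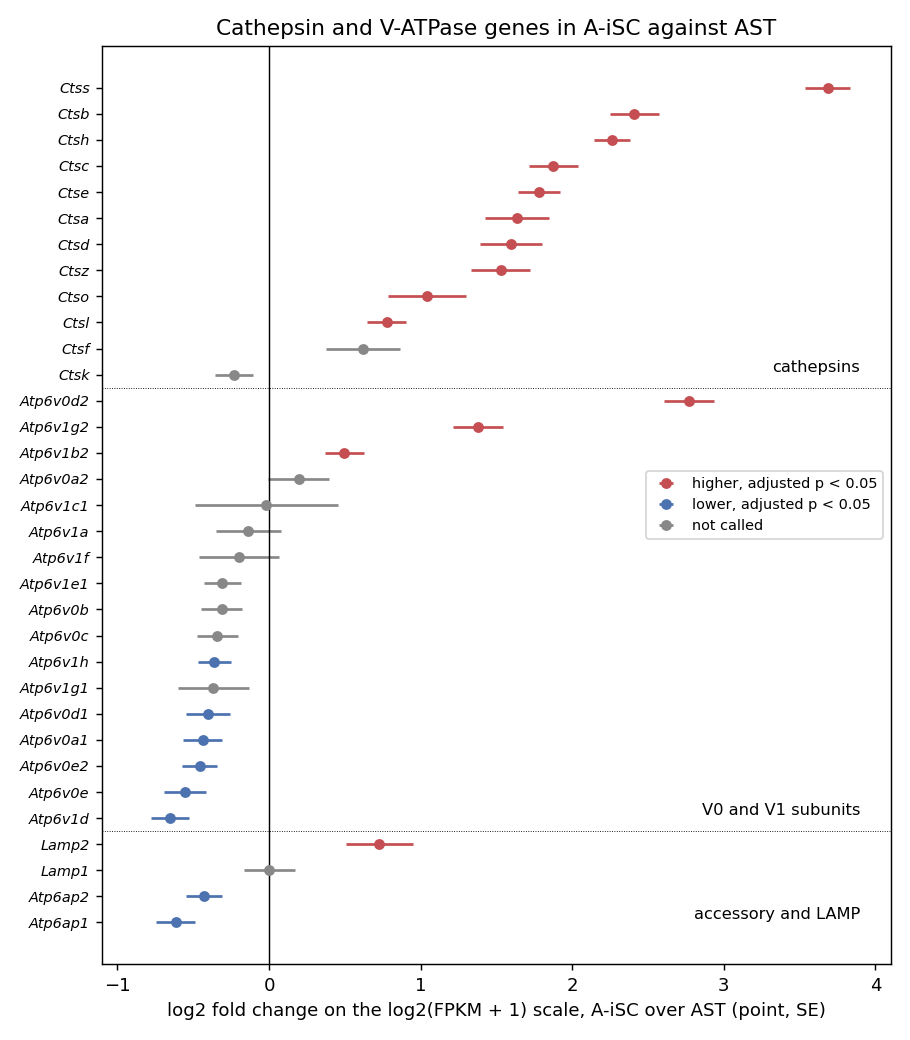
Log2 fold change of each tested gene in A-iSCs over ASTs (x axis, log2(FPKM + 1) scale; points, with bars of 1 standard error from limma), grouped by role. Red points are genes called higher, blue points genes called lower and grey points genes not called; the 10 cathepsins called higher lie between 0.78 and 3.69, Ctsf (0.62) and Ctsk (-0.23) were not called, and most pump subunits lie between 0 and -0.65.

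Cathepsin S (Ctss, chr3:95526786-95556403), the cysteine protease that processes the invariant chain of MHC class II molecules, had the largest log2 fold change on the log2(FPKM + 1) scale. The linear ratio of means was larger for Ctse (34.6) and Atp6v0d2 (22.3), both under 1 FPKM in ASTs. Ctss measured 67.3, 80.0 and 78.2 FPKM in the AST samples and 1046, 906 and 982 in the A-iSC samples, a 13.0-fold higher mean (log2 fold change 3.69 ± 0.148 SE, adjusted p = 5e-06). Every A-iSC sample lay more than an order of magnitude above every AST sample. Cathepsin B (Ctsb), a general cysteine endopeptidase, rose from 169, 163 and 177 FPKM to 1055, 848 and 827 (2.41 ± 0.162, adjusted p = 2.6e-05). The 2 groups did not overlap.

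The cysteine exopeptidases rose together with them. Cathepsin H (Ctsh), an aminopeptidase, measured 7.99, 8.34 and 8.21 FPKM in ASTs and 39.6, 41.1 and 49.1 in A-iSCs, 5.29-fold higher. Cathepsin C (Ctsc), the dipeptidyl peptidase that activates serine proteases of immune cell granules, measured 7.40, 5.60 and 8.08 FPKM against 28.8, 24.3 and 31.9, 4.03-fold higher. Cathepsin Z (Ctsz), a carboxypeptidase, measured 133, 167 and 125 FPKM against 497, 394 and 347, 2.91-fold higher. No A-iSC sample overlapped the AST range in these 3 genes, and their log2 fold changes were 2.26, 1.87 and 1.53.

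The aspartic and serine cathepsins followed. Cathepsin D (Ctsd, chr7:142375911-142388038), the main aspartic protease of lysosomes, was the most abundant gene of the set in ASTs and A-iSCs. It measured 612, 677 and 639 FPKM in ASTs and 2392, 1839 and 1671 in A-iSCs (1.60 ± 0.204, adjusted p = 0.00054). Cathepsin A (Ctsa), a serine carboxypeptidase that also stabilises lysosomal galactosidase and neuraminidase, measured 45.1, 55.7 and 46.3 FPKM against 192, 167 and 113, 3.21-fold higher. The A-iSC samples of both genes spread more widely than the AST samples but stayed above them. Cathepsin E (Ctse), an endosomal aspartic protease, rose from 0.094, 0.109 and 0.034 FPKM, which were 5, 7 and 2 fragments, to 2.86, 2.15 and 3.19 FPKM.

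Smaller changes were seen for cathepsin L (Ctsl), a cysteine endopeptidase, at 87.4, 97.3 and 89.7 FPKM in ASTs and 170.0, 156 and 147 in A-iSCs, and for cathepsin O (Ctso), at 5.84, 4.35 and 6.15 FPKM against 10.7, 8.97 and 18.6. Ctso rested in part on the third A-iSC sample, which had the highest value, but remained called whichever sample was left out. Cathepsin F (Ctsf) measured 7.29, 4.57 and 7.15 FPKM against 7.06, 11.0 and 13.0 and was not called (log2 fold change 0.62, adjusted p = 0.0658); it was called under 4 of the 7 other settings, the replicate block among them (adjusted p = 0.041), and without the first A-iSC sample, the lowest of its group. Cathepsin K (Ctsk), the collagenase of osteoclasts, measured 1.58, 1.60 and 1.32 FPKM against 1.18, 1.34 and 0.888, with no call and overlapping groups.

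The make-up of the cathepsin pool shifted as well. The 18 cathepsin genes summed to 1144, 1265 and 1187 FPKM in ASTs and 5443, 4397 and 4204 in A-iSCs. Ctsd took 53.5% to 53.8% of that sum in ASTs and 39.7% to 44.0% in A-iSCs, while Ctss took 5.89% to 6.59% in ASTs and 19.2% to 23.4% in A-iSCs. These shares lie within a sample and do not depend on the scaling between samples. The groups did not overlap in either share.

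Microglia markers moved with these genes. All 12 rose in A-iSCs (median log2 fold change 2.66), among them C1qa at 87.1 FPKM in ASTs and 1029 in A-iSCs and Csf1r at 7.61 and 87.5. In ASTs, 3 of the 12 (P2ry12, Ptprc and Trem2) had a mean under 1 FPKM, and in A-iSCs 0 did. The ratio of Ctss to the marker sum was 0.264 to 0.293 in ASTs, 0.305 to 0.399 in A-iSCs, 0.252 to 0.274 in P56-NPCs and 0.155 to 0.174 in P0-NPCs. It thus ran from 0.155 to 0.399 over samples that differed 46.2-fold in Ctss itself, with A-iSCs above and P0-NPCs below all AST samples. The ratio of Ctsd to the marker sum varied more. It was 2.23 to 2.45 in ASTs, 0.645 to 0.697 in A-iSCs, 0.223 to 0.239 in P56-NPCs and 0.430 to 0.585 in P0-NPCs. Of the 8 astrocyte markers, 7 rose as well (median 1.92), with the sums given above. Fibroblast and pericyte markers moved the other way, from a sum of 154 to 208 FPKM in ASTs, mostly Col1a1, to 7.29 to 8.68 in A-iSCs, and all 3 that were tested fell. The part of any of these lists in the cathepsin and V-ATPase results was not tested.

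**Figure D2:**
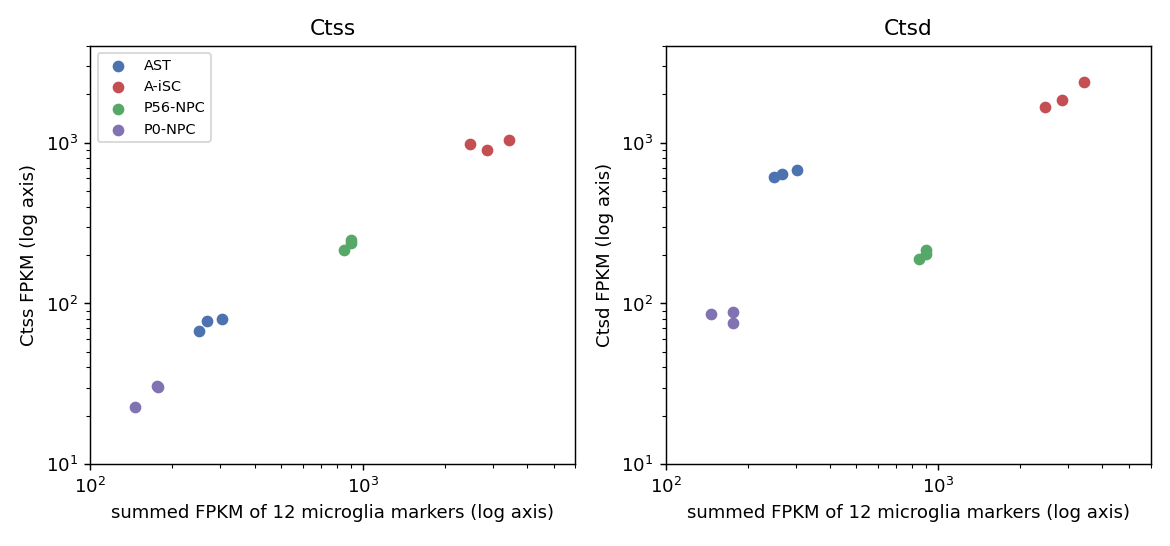
Ctss (left) and Ctsd (right) in each of the 12 samples (y axis, FPKM, log axis) against the summed FPKM of 12 microglia markers (x axis, log axis), coloured by group. The groups have the same order in Ctss as in the marker sum, from P0-NPCs to A-iSCs, whereas the AST points of Ctsd lie above the P56-NPC points at a lower marker sum.

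The V0 and V1 genes as a class had a smaller median difference between A-iSCs and ASTs than the cathepsins, though Atp6v0d2 (2.77) exceeded every cathepsin but Ctss. The summed level of its V0 and V1 genes was 944, 1170.0 and 939 FPKM in ASTs and 898, 850.1 and 754 in A-iSCs, so the ratio of the cathepsin sum to the pump sum was 1.08 to 1.26 in ASTs and 5.17 to 6.06 in A-iSCs. The genes called lower had small changes. Atp6v1d, subunit D of the rotor, measured 32.7, 38.1 and 30.7 FPKM in ASTs and 21.2, 19.5 and 22.6 in A-iSCs (log2 fold change -0.65 ± 0.126, adjusted p = 0.00376). The others were Atp6v0e (-0.55) and Atp6v0e2 (-0.46), the 2 forms of the small subunit e, Atp6v0a1 (-0.44), a form of the proton-channel subunit a, Atp6v0d1 (-0.41), the common form of subunit d that joins the sectors, and Atp6v1h (-0.36), the regulatory subunit H.

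Not called were the proteolipid genes Atp6v0c, at 77.3, 78.7 and 78.8 FPKM in ASTs and 62.8, 69.8 and 53.2 in A-iSCs, and Atp6v0b (-0.31), as well as Atp6v1a, which carries the catalytic sites (-0.14), Atp6v1e1 (-0.31), Atp6v1f (-0.20), Atp6v1g1 (-0.37) and Atp6v0a2 (0.20). With all 4 groups in the model, Atp6v0c (adjusted p = 0.00935), Atp6v0b (adjusted p = 0.0131) and Atp6v1e1 (adjusted p = 0.0128) were called lower, and the A-iSC and AST samples of these 3 genes did not overlap. Atp6v1c1 was too variable to read, at 1.25, 4.60 and 3.25 FPKM in ASTs and 3.94, 0.909 and 4.46 in A-iSCs. The table also lists 2 pseudogenes of Atp6v0c, and how reads shared with them were counted is not given in the sources used here. The lower calls depended on the scaling: with library size alone or upper-quartile scaling, 2 of the 8 genes called lower stayed so (Atp6v1d and Atp6ap1), the median of all genes became 0.13 or 0.12 and that of the subunits -0.10 or -0.11. The Atp6v0d1 call was also lost with the replicate block (adjusted p = 0.0733) and with no filter (adjusted p = 0.0725).

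Against this background, 3 subunit genes rose. Atp6v0d2 (chr4:19876841-19922605), the form of subunit d known from osteoclasts, macrophages and kidney, measured 0.307, 0.436 and 0.416 FPKM in ASTs, from 14, 24 and 21 fragments, and 10.8, 8.36 and 6.68 FPKM in A-iSCs (2.77 ± 0.166, adjusted p = 1.7e-05). The mean was 22.3-fold higher. Atp6v1g2, the form of the stator subunit G found mainly in brain, measured 1.43, 1.40 and 1.37 FPKM against 5.26, 6.74 and 4.01 (1.38 ± 0.164, adjusted p = 0.000388). Atp6v1b2, the widely expressed form of the nucleotide-binding subunit B, measured 38.0, 30.9 and 35.6 FPKM against 46.8, 48.3 and 53.4 (0.50 ± 0.127, adjusted p = 0.0132). In all 3 genes the lowest A-iSC sample exceeded the highest AST sample.

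The choice between isoforms can be read as a share of each subunit's summed FPKM within a sample. For subunit d, Atp6v0d2 took 0.320% to 0.435% in ASTs and 8.77% to 11.0% in A-iSCs; it was listed at 0 in all P56-NPC samples and reached at most 0.077% in P0-NPCs. For subunit G, Atp6v1g2 took 0.467% to 0.748% in ASTs, 2.58% to 3.58% in A-iSCs, 28.6% to 34.0% in P56-NPCs and 6.98% to 10.1% in P0-NPCs. All 4 groups were apart in this share, with P56-NPCs highest.

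For subunit e, the isoform shares of ASTs and A-iSCs overlapped: Atp6v0e2 took 50.6% to 56.8% and 54.2% to 57.5%, against 83.2% to 84.6% in P56-NPCs and 85.4% to 86.9% in P0-NPCs. For subunit a, Atp6v0a2, a form of the Golgi and endosomes, took 38.2% to 45.4% in ASTs, 47.0% to 60.7% in A-iSCs, 42.9% to 44.5% in P56-NPCs and 12.5% to 15.2% in P0-NPCs. The differences between A-iSCs and ASTs were 9.61 percentage points for Atp6v0d2, 2.35 for Atp6v1g2 and 11.4 for Atp6v0a2, each with an exact two-sided permutation p = 0.1, the smallest that 3 against 3 samples allow, and 1.70 for Atp6v0e2 with an exact permutation p = 0.5. Of the 5 osteoclast markers, 4 stayed under a mean of 1 FPKM in every group and Acp5 was 0.281 FPKM in ASTs and 2.03 in A-iSCs, where the list summed to 1.76 to 2.84 FPKM.

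**Figure D3:**
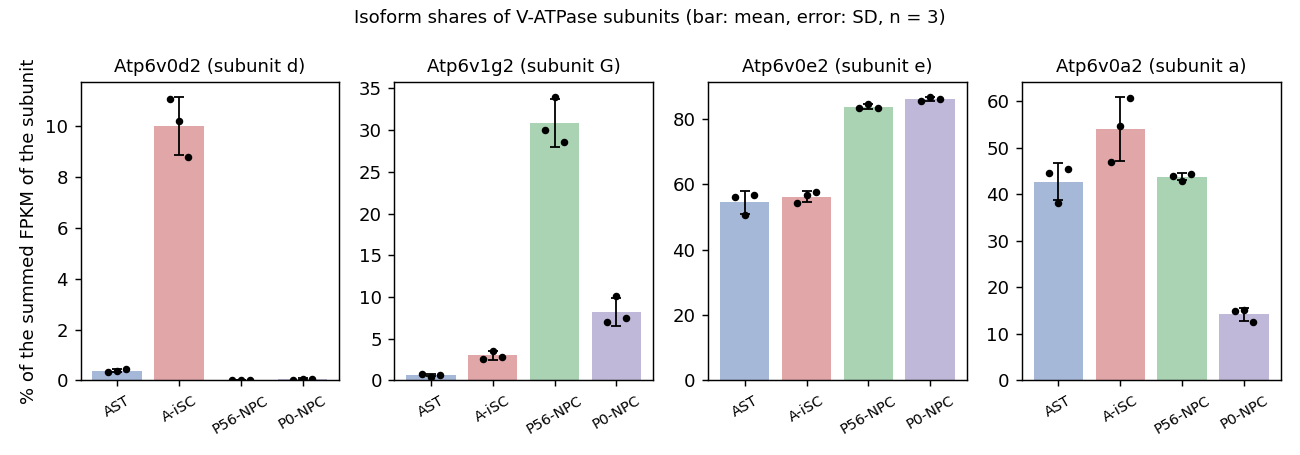
Share of a V-ATPase subunit's summed FPKM taken by the named isoform gene (y axis, percent) in each group; bars are means, error bars SD and dots the 3 samples. Atp6v0d2 stands out in A-iSCs, Atp6v1g2 in P56-NPCs, Atp6v0e2 is above 83% in both NPC groups, and Atp6v0a2 is lowest in P0-NPCs.

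The accessory proteins of the pump fell and the LAMPs diverged. Atp6ap1 (Ac45), which helps to assemble and target the V0 sector, measured 147, 139.5 and 149 FPKM in ASTs and 104, 93.5 and 86.3 in A-iSCs (-0.62 ± 0.128, adjusted p = 0.00542). Atp6ap2, the prorenin receptor, measured 65.0, 67.6 and 66.7 FPKM against 47.3, 46.0 and 54.2 (-0.43 ± 0.117, adjusted p = 0.0175), a call lost under the 2 other scalings. No A-iSC sample reached the AST range in either gene.

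Lamp1 measured 426, 381 and 436 FPKM in ASTs and 389.8, 376 and 485 in A-iSCs, with overlapping groups and a log2 fold change of 0.00 ± 0.168. Lamp2 (chrX:38401357-38456454) measured 36.5, 32.9 and 38.9 FPKM against 52.9, 48.0 and 86.0, the third A-iSC sample being highest (0.73 ± 0.222, adjusted p = 0.0271). The Lamp2 call was lost with no filter (adjusted p = 0.0591) and whichever AST sample was left out, and without the third A-iSC sample the change was 0.47. The Lamp1 to Lamp2 ratio was 11.2 to 11.7 in ASTs and 5.64 to 7.83 in A-iSCs.

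In the comparison of A-iSCs with the P56-NPCs of the adult subependymal zone, 18 of 33 genes were higher in A-iSCs (30.1% of all genes tested) and 6 were lower (30.9%). With library size alone these counts became 26 higher (55.9% of all genes) and 3 lower (19.2%). Against the P0-NPCs of the newborn hippocampus, 25 of 33 were higher (31.5% of all genes) and 4 lower (33.6%). These comparisons use the same A-iSC samples as the comparison with ASTs. The cathepsins again had the larger differences, with medians of 2.10 against P56-NPCs and 2.73 against P0-NPCs, while those of the V0 and V1 subunits were 0.42 and 0.54 and those of all genes 0.03 and -0.02.

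**Figure D4:**
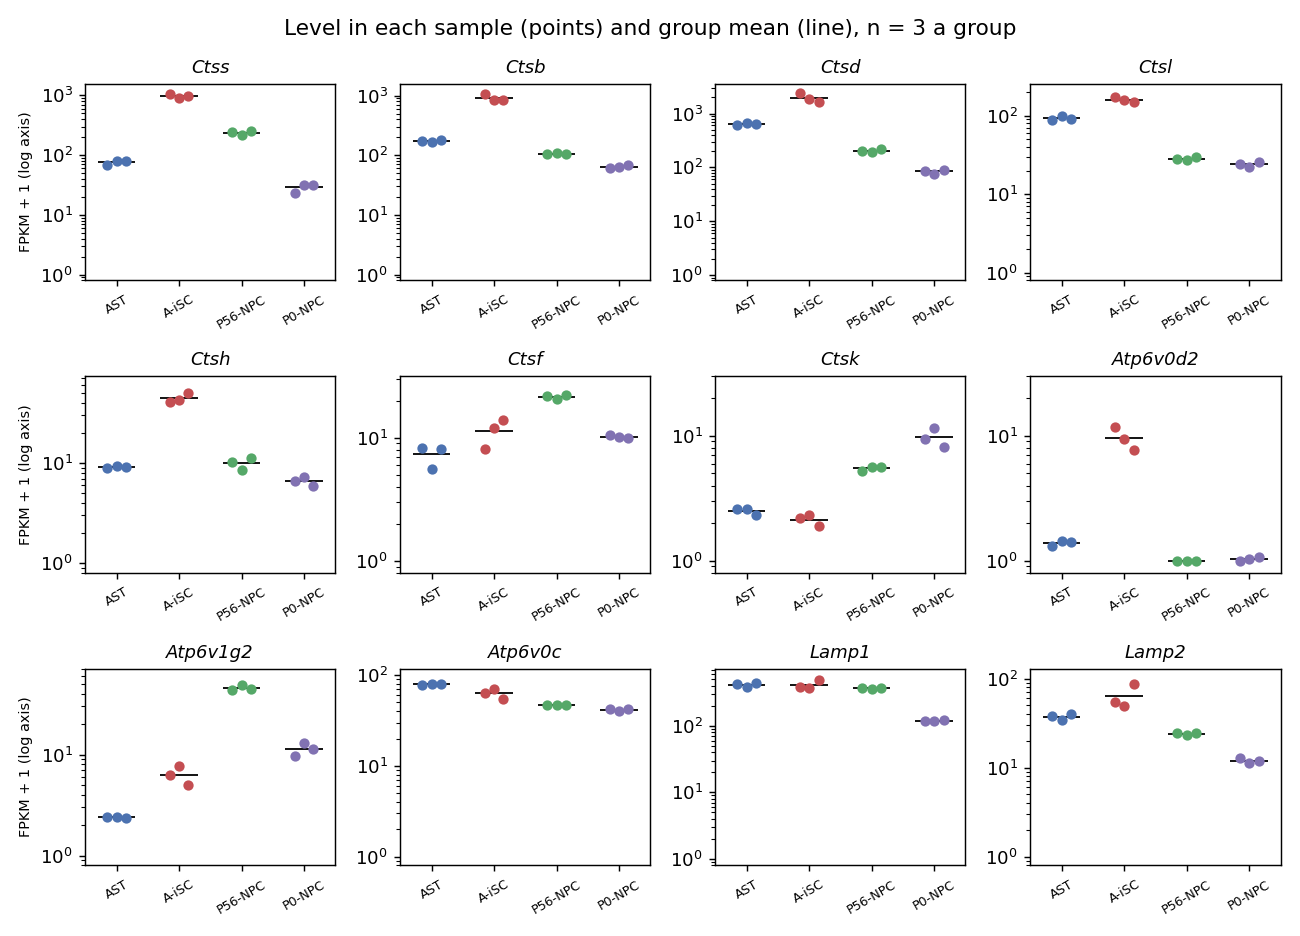
FPKM + 1 (y axis, log axis) of 12 of the genes in each sample (dots) and as a group mean (line), in 4 groups of 3 samples. The A-iSC samples are highest for Ctss, Ctsb, Ctsd, Ctsl, Ctsh and Atp6v0d2, while Ctsf and Atp6v1g2 are highest in P56-NPCs and Ctsk in P0-NPCs.

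Ctsd showed a wide gap to both NPC groups. It measured 203, 189.7 and 217 FPKM in P56-NPCs and 85.7, 75.8 and 88.1 in P0-NPCs, below ASTs as well as A-iSCs. The A-iSC mean was 9.68-fold and 23.6-fold higher. Ctsb measured 102, 107 and 105 FPKM in P56-NPCs and 60.4, 62.7 and 67.7 in P0-NPCs, and Ctsl measured 26.7, 25.9 and 29.0 FPKM and 23.6, 21.1 and 24.3, so the order of the group means for these 3 proteases was A-iSC, AST, P56-NPC, P0-NPC. Every neighbouring pair of that order differed past the threshold for each of the 3 genes with the deposited scaling. For Ctsb the step from P56-NPCs to P0-NPCs (0.71 ± 0.066, adjusted p = 3.2e-05) was not called with library-size scaling (0.09). For Ctsl the step from P56-NPCs to P0-NPCs was small (log2 fold change 0.23 ± 0.076, adjusted p = 0.0225), its call was lost without P56-NPC replicate 1 or 3 or P0-NPC replicate 2 (0.18 to 0.28 without single samples), and its direction turned with the 2 other scalings (-0.37 with library size alone and -0.01 with upper quartile).

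Ctss had another order. It measured 238, 215 and 248 FPKM in P56-NPCs and 22.6, 30.7 and 30.3 in P0-NPCs, so P56-NPCs stood between A-iSCs and ASTs, with a log2 fold change of 1.62 ± 0.104 over ASTs and of 3.03 ± 0.124 over P0-NPCs. Ctss made up 30.1% to 31.7% of the cathepsin sum of P56-NPCs and exceeded Ctsd there by 1.13 to 1.17 times, whereas in A-iSCs it was 0.437 to 0.588 times Ctsd. The order of the groups by Ctss was that of the microglia marker sums, in which C1qa, C1qb and Tyrobp weigh most in A-iSCs. P2ry12 and Tmem119 had another order and were highest in P56-NPCs, at 60.2 and 52.2 FPKM against 7.30 and 16.8 in A-iSCs.

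A few cathepsins were highest outside A-iSCs. Ctso measured 29.3, 29.7 and 28.8 FPKM in P56-NPCs and 3.40, 3.96 and 3.56 in P0-NPCs, 8.05-fold apart, and was lower in A-iSCs than in P56-NPCs (-1.20 ± 0.237, adjusted p = 0.0038). Ctsf measured 20.8, 19.8 and 21.1 FPKM in P56-NPCs, above A-iSCs (-0.96 for A-iSCs over P56-NPCs, not called with library-size scaling), and 9.53, 9.19 and 8.89 in P0-NPCs. Ctsk measured 4.19, 4.62 and 4.62 FPKM in P56-NPCs and 8.36, 10.5 and 7.18 in P0-NPCs, the only one of the 12 tested cathepsins whose mean was highest in P0-NPCs. All 6 oligodendrocyte, all 5 oligodendrocyte precursor and all 5 ependymal markers were highest in P56-NPCs, where Ctso and Ctsf peaked, as were 5 of 8 astrocyte and 6 of 9 neuron markers, and the part of any of these lists in the values was not tested. Of the 6 fibroblast and pericyte markers, Rgs5, Dcn and Lum were, like Ctsk, highest in P0-NPCs and next in P56-NPCs, with means of 38.6 and 1.92 FPKM for Rgs5 and 7.42 and 0.701 for Lum, whereas Col1a2 and Pdgfrb were highest in P0-NPCs and next in ASTs, and Col1a1 was highest in ASTs, at 158 FPKM against 34.2 in P0-NPCs. All 6 endothelial markers were also highest in P0-NPCs, with a sum of 72.8 to 74.8 FPKM against at most 4.71 in the other samples. The part of either list in the Ctsk values was not tested.

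Atp6v1g2 was lower in A-iSCs than in P56-NPCs (-2.87 ± 0.162), in the direction opposite to most cathepsins. It measured 43.0, 47.4 and 43.4 FPKM in P56-NPCs and 8.76, 12.1 and 10.4 in P0-NPCs, so the mean was 31.9-fold higher in P56-NPCs than in ASTs (4.25 ± 0.068, adjusted p = 1.6e-08). The A-iSC samples lay between ASTs and P0-NPCs, with no overlap. Among the neuron markers, Snap25 (33.7 and 14.9 FPKM), Syp (19.9 and 11.8) and Map2 (71.1 and 41.7) had higher means in P56-NPCs than in P0-NPCs, while Tubb3 (76.8 and 634) and Stmn2 (18.2 and 109) had lower ones. Their part in the Atp6v1g2 values was not tested.

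Atp6v0d2 was 3.24 ± 0.160 higher in A-iSCs than in P56-NPCs, where it was listed at 0 in all 3 samples. With a floor of 3 fragments per library, the A-iSC mean was at least 125-fold higher. Atp6v0e showed the largest decrease from ASTs to both NPC groups among the subunits tested, at 56.03, 71.1 and 54.2 FPKM in ASTs, 40.3, 43.1 and 38.4 in A-iSCs, 16.1, 15.1 and 17.8 in P56-NPCs and 11.5, 10.1 and 12.6 in P0-NPCs. Its paralog Atp6v0e2 was lower in A-iSCs than in ASTs, as Atp6v0e was (-0.46 and -0.55), but did not drop in parallel in the NPC groups. Atp6v0e2 measured 71.9, 72.6 and 71.1 FPKM in ASTs, 47.8, 56.7 and 52.0 in A-iSCs, 80.4, 82.8 and 88.3 in P56-NPCs and 67.0, 66.6 and 78.3 in P0-NPCs.

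The 2 NPC groups were also compared with ASTs and with each other. In P56-NPCs, 6 of 31 genes were higher than in ASTs (39.1% of all genes tested) and 17 were lower (39.8%). In P0-NPCs, 4 of 31 were higher (38.1%) and 25 were lower (40.9%). The genes lower in P0-NPCs included Lamp1, at 117, 118 and 123 FPKM, 3.48-fold below ASTs (log2 fold change -1.79 ± 0.116), Atp6ap1 (-1.53 ± 0.092) and Atp6v0a2 (-1.59 ± 0.148), whereas Atp6v0a1, the form of subunit a known from neurons, was higher (0.39 ± 0.087), at 30.3, 29.1 and 32.0 FPKM against 24.6, 21.7 and 22.9 in ASTs. Of the 9 neuron markers, 3 (Rbfox3, Stmn2 and Tubb3) were also highest in P0-NPCs and 6 were highest in P56-NPCs, and their part in the Atp6v0a1 value was not tested.

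When P56-NPCs were set against P0-NPCs, 25 of 31 genes were higher in the former (39.7% of all genes) and 2 were lower (39% of all genes). The largest differences were Ctss, Ctso (2.71 ± 0.066), Atp6v1g2 (2.01 ± 0.109), Atp6v0a2 (1.62 ± 0.075) and Lamp1 (1.61 ± 0.066). The smaller ones, of cathepsins and subunits alike, depended on the scaling. With library size alone the calls of Ctsb, Ctsh and Ctsc were lost and Ctsl was called in the other direction (-0.37, adjusted p = 0.00254). The V0 and V1 subunits went from 11 higher and 1 lower (median 0.29) to 3 higher and 9 lower (median -0.32). The counts of all members were then 13 higher (22.3% of all genes) and 11 lower (61.2%), and the median of all genes moved from 0.01 to -0.53. With upper-quartile scaling the counts were 19 higher (31.5%) and 5 lower (48.1%). P56-NPCs were also the samples with the high mitochondrial share.

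**Figure D5:**
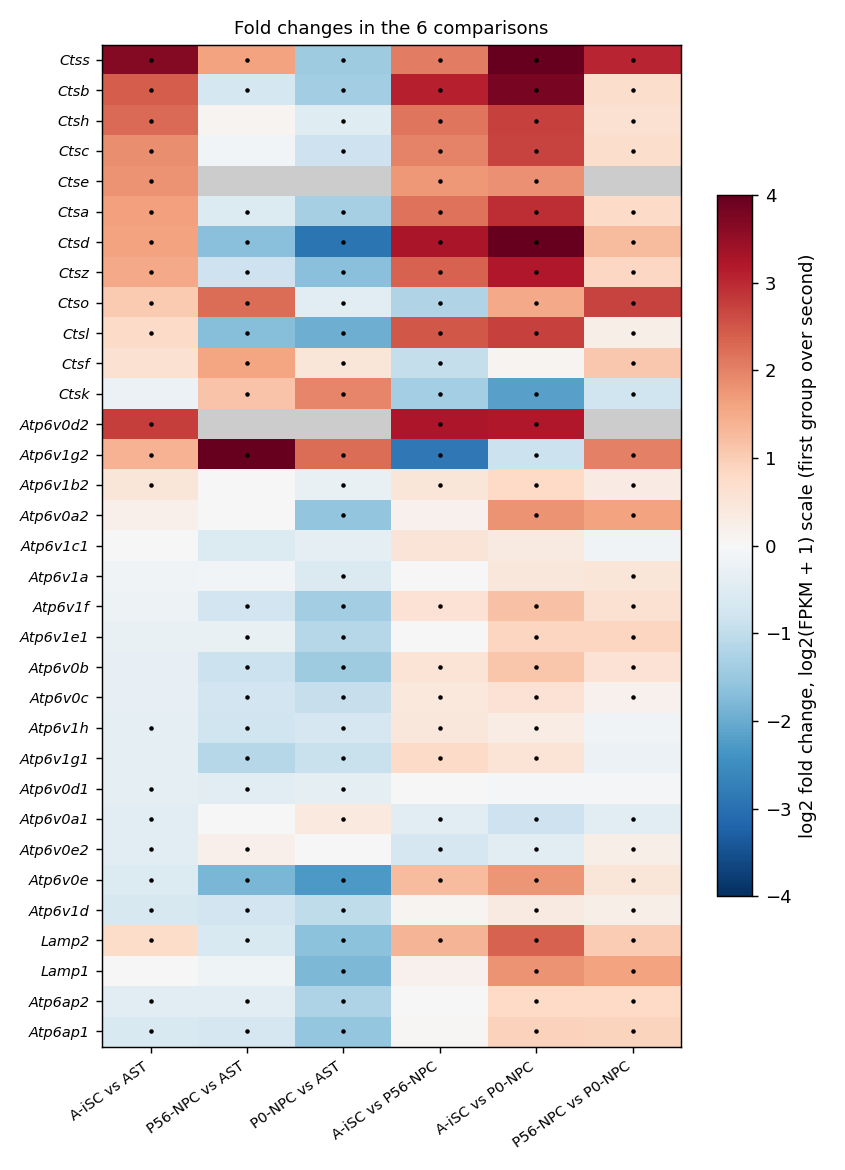
Log2 fold change (colour, log2(FPKM + 1) scale, first group over second) of the 33 genes in the 6 comparisons; a dot marks an adjusted p under 0.05 by limma and grey a gene that was not tested. Apart from Ctso, Ctsf and Ctsk, the cathepsins are red in the 3 comparisons of A-iSCs, and the P0-NPC vs AST column is mostly blue.

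The remaining 11 genes stayed under a mean of 1 FPKM in every group. Atp6v1g3, a kidney form of subunit G, and the placental cathepsins Ctsj, Ctsm, Ctsq and Ctsr had 0 fragments in all 12 samples, which allows a level of up to 0.132 FPKM. Ctsw, known from cytotoxic lymphocytes, had 127 fragments over all samples and Ctsg, a protease of neutrophil granules, had 7. The renal forms Atp6v0a4 and Atp6v1b1 had 35 and 14 fragments, the testis form Atp6v1e2 had 16 and Atp6v1c2 had 156. The 6 markers of granulocytes and lymphocytes summed to at most 0.581 FPKM in ASTs and 0.401 in A-iSCs, to 5.66 to 8.01 in P56-NPCs and to 5.99 to 15.4 in P0-NPCs, where 5 of the 7 Ctsg fragments were found.

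Many lysosomal genes carry a CLEAR element, an E-box-type site of the transcription factors TFEB, TFE3 and MITF, near their start. The letters CACGTG, which read the same on both strands, were searched in RefSeq promoter windows on GRCm38.p6, 250 bases before to 50 after each start. Windows were given for 34 of the 44 genes, 38 in all, and not for Atp6v0a2, Atp6v0d2, Atp6v1b2, Atp6v1c1, Atp6v1g1, Atp6v1h, Ctsb, Ctse, Ctsh and Ctsw. The letters occurred in 9 of the 38 windows, or 23.7% (exact 95% interval 11.4% to 40.2%), and in 2349 of all 32851 windows, or 7.2%. The longer TCACGTGA, which contains the shorter motif, occurred in 5 of 38 windows (13.2%) and in 1.0% of all.

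The windows with a match belonged to genes that moved in different directions between A-iSCs and ASTs. Ctsa, Ctsd and Ctsl rose, Ctsf, Lamp1, Atp6v0b and Atp6v1a were not called, and Atp6v0d1 and Atp6v0e were called lower. The window of Ctss held no match. Stretches of 60 bases before the start are shown for 2 cathepsins that rose and for 3 genes that did not, as the matches are the sequence feature they share; capitals mark CACGTG, and each is written 5′ to 3′ on the strand of the gene.
Ctsd, chr7:142387893-142387952, minus strand: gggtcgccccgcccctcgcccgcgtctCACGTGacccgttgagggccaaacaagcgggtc
Ctsa, chr2:164833713-164833772, plus strand: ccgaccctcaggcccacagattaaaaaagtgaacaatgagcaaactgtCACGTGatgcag
Lamp1, chr8:13159096-13159155, plus strand: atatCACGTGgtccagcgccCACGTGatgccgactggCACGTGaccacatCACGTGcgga
Atp6v0b, chr4:117887330-117887389, minus strand: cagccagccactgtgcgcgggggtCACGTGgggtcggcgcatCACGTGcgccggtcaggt
Atp6v1a, chr16:44139358-44139417, minus strand: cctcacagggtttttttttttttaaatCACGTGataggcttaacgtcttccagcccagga
The Lamp1 stretch held 4 matches and that of Atp6v0b held 2, while Ctsd had a further match at position -245 from its start. These are matches of letters and not measured binding sites.

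Other genes of the pathway were taken from lists of lysosomal hydrolases, membrane proteins, TFEB-family factors, cathepsin inhibitors, mannose 6-phosphate sorting and pump assembly, 98 genes in all, and tested with the deposited scaling alone. In A-iSCs against ASTs, 44 of 90 tested rose (48.9%, against 25.2% of all genes tested) and 14 fell (15.6% against 29.6%), with a median log2 fold change of 0.36. Of 40 soluble hydrolases and activators 18 rose and 5 fell; those that rose included Lgmn, the asparaginyl endopeptidase that processes cathepsins, at 85.4 FPKM in ASTs and 345 in A-iSCs, and Lipa, the lysosomal acid lipase, at 11.2 and 31.0, and those that fell included Smpd1, the acid sphingomyelinase, at 47.2 and 23.9. Of 24 membrane proteins 15 rose and 2 fell, and Cd68, a membrane protein of macrophage lysosomes, measured 29.9 FPKM in ASTs and 228 in A-iSCs. Ppt1 and Tpp1, further hydrolases, were not called.

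All 3 tested TFEB-family genes rose, from low levels: Tfeb was at 2.35 FPKM in ASTs and 5.33 in A-iSCs, Tfe3 at 6.06 and 9.60 and Mitf at 0.766 and 3.25. Of 8 inhibitors 4 rose and 4 fell. Serpina3n, a secreted serine protease inhibitor of reactive astrocytes, measured 8.78 FPKM in ASTs and 285 in A-iSCs. Cst3, the secreted cystatin C, measured 814 FPKM in ASTs and 2010.0 in A-iSCs, and Cst7, a cystatin of immune cells, 0.490 and 10.8, whereas Cstb, the cytosolic cystatin B, measured 262 and 188 and Cst6 7.43 and 1.23. Of 6 genes of mannose 6-phosphate sorting 2 rose and 2 fell, and of 9 assembly factors 2 rose and 1 fell, with a median of 0.05.

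Set against P56-NPCs, A-iSCs had 54 of 91 pathway genes higher (59.3%, against 30.1% of all genes) and 18 lower (19.8% against 30.9%). Set against P0-NPCs, 73 of 90 were higher (81.1% against 31.5%) and 4 lower (4.44% against 33.6%). In P56-NPCs 33 of 87 were higher than in ASTs, and this 37.9% lay near the 39.1% of all genes, while 44 were lower (50.6% against 39.8%). In P0-NPCs 11 of 86 were higher than in ASTs (12.8% against 38.1%) and 66 lower (76.7% against 40.9%). P56-NPCs exceeded P0-NPCs in 68 of 86 (79.1% against 39.7%) and were lower in 8 (9.3% against 39%). The soluble hydrolases had the largest part in the P0-NPC counts, with 37 of 39 lower than in ASTs.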

How the data were processed

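RNA of 12 samples, 3 for each of the 4 groups, was sequenced as paired-end reads from NEBNext Ultra libraries. The authors deposited FPKM per gene; the submitters' processing notes name Bowtie 0.12.2 and mm8, but 54985 of 55240 shared gene identifiers, and all 44 genes described here, have their GENCODE M21 (GRCm38) positions. All FPKM values came back as whole fragments (tolerance 0.01), 17077780 to 24452419 per sample; the library sizes behind them were 0.744 to 1.22 times these totals, so the deposited values carry a scaling between samples. A floor of 3 fragments equals 0.103 to 0.187 FPKM at 1 kilobase; floors and intervals cover counting error only.

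Groups were compared with limma 3.58.1 (R 4.3.3, trend) on log2(FPKM + 1), over genes with a mean of at least 1 FPKM in either group, with Benjamini-Hochberg adjustment over all genes tested. DESeq2, named by the study, was not run; limma-voom on recovered fragments was an alternative. Other alternatives were 2 scalings, no filter, pseudocount 0.1, all groups in the model, a replicate block and leaving out each sample. On simulated data for A-iSCs against ASTs (13403 genes), 189 of 200 changed genes and 28 unchanged genes were called. Values are printed for genes with a mean of at least 10 FPKM in a group or a called log2 fold change beyond 1. Those of the variable Atp6v1c1 are printed as well, and all others are accounted for. The genes and lists were chosen with earlier results of these data known.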

Additional observations from a re-analysis of the deposited data

How the results depend on the processing

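For the genes printed with a test, 1004 of 1066 alternative values kept their direction and call. These values cover A-iSCs against ASTs and only some tests of the other comparisons. Counted by gene, a smaller share of calls held under every alternative. These were 15 of 22 for A-iSCs against ASTs, 20 of 23 for P56-NPCs against ASTs and 22 of 29 for P0-NPCs against ASTs. The counts were 19 of 24 for A-iSCs against P56-NPCs, 25 of 29 for A-iSCs against P0-NPCs and 15 of 27 for P56-NPCs against P0-NPCs. In A-iSCs against ASTs, 14 genes were higher and 8 lower, but 11 lower with all 4 groups in the model (34.8% of all genes), 2 with library-size or upper-quartile scaling, 0 beyond a log2 fold change of 1 (11.0% of all genes), and 3 to 7 with 1 sample left out (3 without AST replicate 1 or 3, 4 without A-iSC replicate 2, 5 without A-iSC replicate 1). The calls of 6 genes were lost without single samples. The range given for each runs over all 6 fits without 1 sample, also those that kept the call. Atp6v0d1 lost its call without AST replicate 1, 2 or 3 or A-iSC replicate 2 or 3 (range -0.50 to -0.32). Atp6v0e2 lost it without AST replicate 1 or 3 or A-iSC replicate 1 (-0.52 to -0.40). Atp6ap2 lost it without AST replicate 1 or 3 or A-iSC replicate 1 or 2 (-0.50 to -0.39). Atp6v0a1 lost it without AST replicate 1 or 3 or A-iSC replicate 2 (-0.54 to -0.36). Atp6v1h lost it without AST replicate 1, 2 or 3 or A-iSC replicate 1 or 2 (-0.40 to -0.29). Lamp2 lost it without AST replicate 1, 2 or 3 (0.47 to 0.89). Uncalled genes changed sign: Lamp1 (-0.00 with limma-voom, -0.11 to 0.07 without single samples), Atp6v1f (0.02 with library size, 0.00 with upper quartile, -0.34 to 0.05 without single samples) and Atp6v1a (0.07 and 0.06 with the 2 scalings). The called Ctsl, P56-NPCs against P0-NPCs, turned to -0.37 (a call in the other direction, adjusted p = 0.00254) and -0.01 with them. Ctsb in that comparison was not called with library size alone (0.09). In the same comparison, 9 of the 27 called genes, Ctsl among them, changed sign under at least 1 alternative. Called genes that changed sign numbered 2 of 29 in P0-NPCs against ASTs, 1 of 23 in P56-NPCs against ASTs and 1 of 24 in A-iSCs against P56-NPCs. No called gene did so in A-iSCs against ASTs or P0-NPCs. Beyond a log2 fold change of 1, the counts became 4 lower (18.2% of all genes) for P56-NPCs against ASTs, 2 higher (20.2%) and 16 lower (18.7%) for P0-NPCs against ASTs, 3 lower (16.7%) for A-iSCs against P56-NPCs, 1 lower (15.7%) for A-iSCs against P0-NPCs, and 8 higher (17.2%) and 0 lower (13.2%) for P56-NPCs against P0-NPCs. With library size alone, 26 were higher (55.9% of all genes) and 3 lower (19.2%) for A-iSCs against P56-NPCs and 13 higher and 11 lower for P56-NPCs against P0-NPCs, where upper-quartile scaling gave 5 lower. The share differences became 13.8 points for Atp6v0d2 and 4.98 for Atp6v1g2 with fragments in place of FPKM, and that of Atp6v0e2 ran from -0.286 to 2.83 without single samples. The E-box share of windows was 18.4% in the 250 bases before the start.

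The replicate numbers are shared by the groups, but same-numbered A-iSC and AST samples correlated at -0.41, 0.35 and 0.45 in their deviations from the group means, so the numbers were not taken as pairs; with the replicate block 15 genes were higher and 7 lower in A-iSCs, as Ctsf gained a call (0.62) and Atp6v0d1 lost its call (-0.41, adjusted p = 0.0733). With no filter, Atp6v0d1 (adjusted p = 0.0725) and Lamp2 (adjusted p = 0.0591) were not called. The causes of these changes were not tested. The depth limits the genes under 1 FPKM, for which a fold change rests on few fragments, and with 3 samples a group an exact permutation test cannot go below 0.1.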
